A study of Mus musculus with 8 samples.

Results

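Interleukins are secreted proteins through which immune and tissue cells signal to each other, and their receptors are built from chains that are often shared between several ligands. The genes described here are all those whose mouse symbol begins with Il and a number in the deposited FPKM table, apart from Il1b, Il18 and Il34, which the selection left out. There are 79 such genes among 29956 named genes, and each of the 79 matched a gene in the table of estimated counts. They comprise 34 ligands, 38 receptor chains, 6 inhibitors (receptor antagonists, binding proteins and decoy receptors) and the amino acid oxidase Il4i1. RNA was sequenced from liver macrophages of wild-type mice of the BALB/c strain, in 4 samples after vehicle and 4 after CCl4 (carbon tetrachloride, a hepatocyte toxin used to produce liver fibrosis). The sorted cells were positive for CD45, a protein of all leukocytes, and for F4/80, a macrophage surface protein, and per the series' design text negative for the endothelial protein CD31. The sources used here do not give the dose and duration of CCl4, age or sex. No label states that the libraries come from separate animals, so p-values reflect only how these samples vary, and that variation may be technical.

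Most interleukin receptors signal in 1 of a few ways. Chains of the cytokine receptor families activate JAK kinases and STAT transcription factors, whereas the receptors for IL-1, IL-18, IL-33 and IL-36 carry a TIR domain and act through MYD88 and IRAK kinases. Soluble antagonists and binding proteins limit IL-1 and IL-18. In the liver, Kupffer cells, the resident macrophages, and macrophages derived from blood monocytes are known sources of IL-1, IL-6, IL-10, IL-12 and IL-18.

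Between 19428078 and 26119351 estimated counts per library were assigned to genes. Levels are CPM (counts relative to the library total, with TMM scaling between libraries). Values of single libraries are in the order of replicates 1 to 4, and other values are the mean ± SD of 4 libraries. Adgre1, which encodes F4/80, was at 1272 ± 210.0 CPM in vehicle and 1187 ± 166 CPM in CCl4, and Ptprc, which encodes CD45, at 512 ± 78.0 CPM in vehicle and 623 ± 73.8 CPM in CCl4. Summed over a list of markers, Kupffer cell transcripts were at 21270 to 31020 CPM in vehicle and 6246 to 11570 CPM in CCl4, monocyte transcripts at 171.0 to 258.0 and 476.4 to 756.2 CPM, and neutrophil transcripts at 108.9 to 244.2 and 252.8 to 556.1 CPM. Each gene of the marker lists used here had counts in at least 1 library. Vehicle 2 and CCl4 4 had the lowest totals and the highest summed level of chemosensory receptor genes, 2758 and 2751 CPM against 705.6 to 1426 CPM in the other 6 libraries. The mitochondrial share of counts was 3.97, 5.31, 3.16 and 1.91% in the vehicle libraries and 0.932, 1.16, 0.763 and 0.9% in the CCl4 libraries. All 4 vehicle libraries lay above all 4 CCl4 libraries, and the part of this share in the changes given here was not tested. Without vehicle 2 and CCl4 4 together edgeR called 12 of the interleukin genes higher and 3 lower, with Il12rb2 and Il27 lost and Il16, Il17ra, Il1rl1, Il33 and Il4ra gained against the counts given next. In that setting 52 of the interleukin genes were tested, and 18.8% of all genes tested were called.

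Of the 79 genes, 53 had enough counts to be tested and 12 of those changed at an adjusted p under 0.05 (edgeR's quasi-likelihood test, Benjamini-Hochberg adjustment over all genes tested). That is 22.6% of the 53, where 15.2% of all 15212 genes tested were called. The 12 comprised 9 that were higher in CCl4 and 3 that were lower, beside 8.93% of all genes called higher and 6.26% called lower. Receptor chains were 7 of the 12 calls and 34 of the 53 tested genes, so they were not called more often than the family as a whole. Among 34 tested receptor chains 7 rose and 0 fell, at a median log2 fold change of 0.62, and among 15 tested ligands 1 rose and 2 fell, with a median of -0.31. The median over all genes tested was -0.029. At an unadjusted p under 0.05, 13 receptor chains were higher and 1, Il15ra, was lower, where 15.4% of all genes tested were higher and 12.9% lower at that threshold, and DESeq2 called no receptor chain lower. With libraries scaled by their size alone, edgeR called 9 of the 53 higher and 6 lower, with Il10, Il15 and Il15ra added to the lower ones. That scaling moved the median over all genes to -0.155 and the share of all calls that were higher from 58.8% to 43.1%, with 16.5% of all genes tested called. The 4 libraries of one group lay wholly apart from the 4 of the other in 18 of the 53 genes, beside 22.5% of all genes tested, and in 11 of the 12 that were called.

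**Figure D1:**
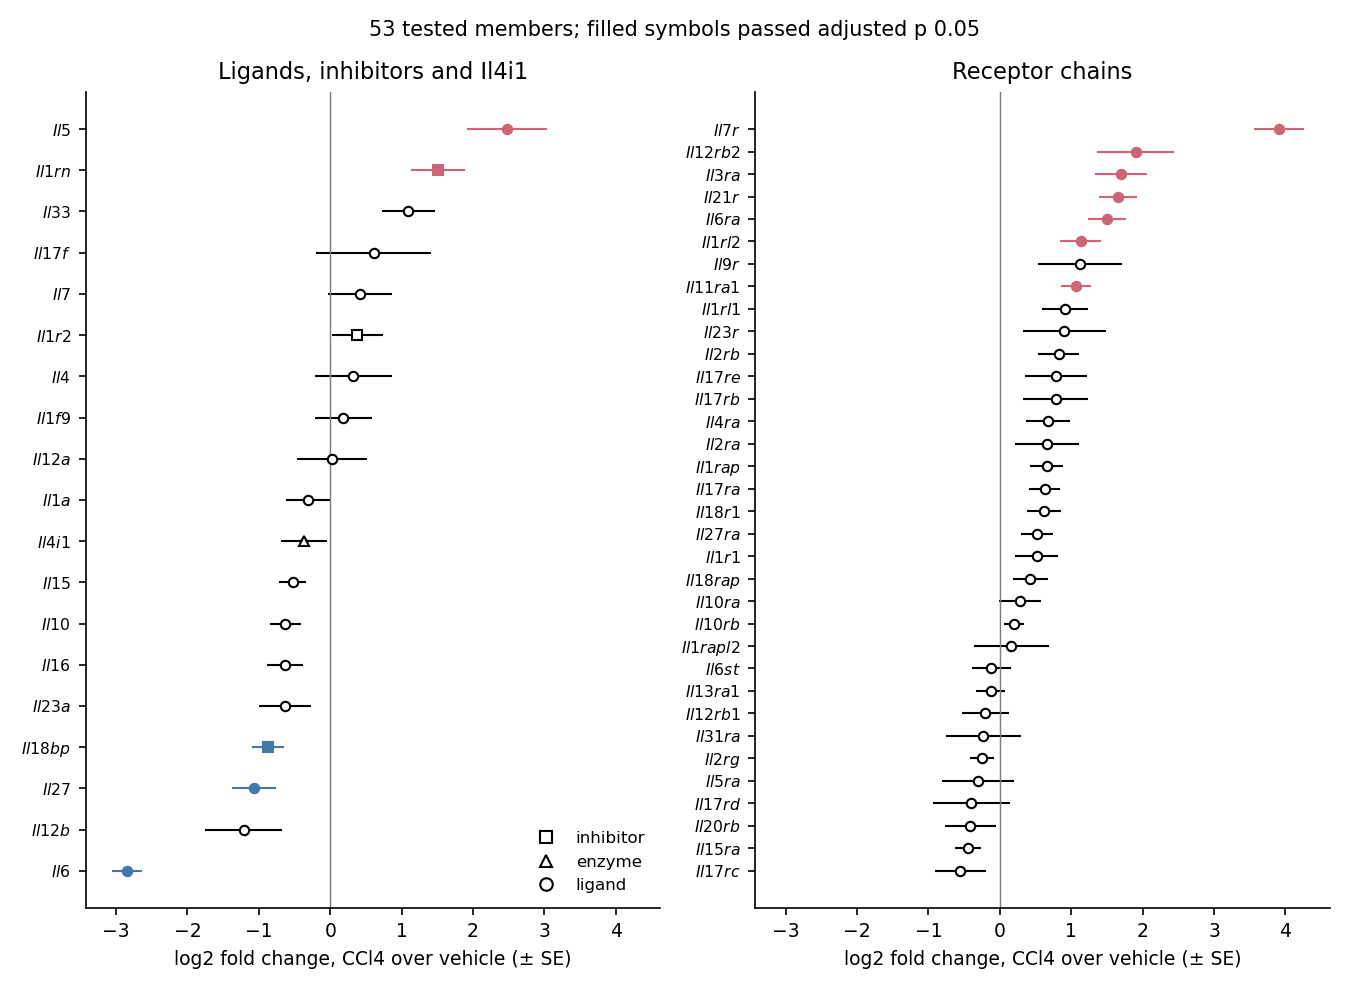
Log2 fold change of CCl4 over vehicle (horizontal axis, ± SE, 4 libraries per group) for the 53 tested genes, with ligands, inhibitors and Il4i1 on the left and receptor chains on the right. Filled red symbols were called higher, filled blue symbols lower and open symbols were not called. Il7r lies at 3.90 and Il6 at -2.85, and all 7 filled receptor chains lie above 0.

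Il6 encodes a cytokine that drives the acute phase response of hepatocytes and signals through IL6RA and the shared chain IL6ST. The gene lies at chr5:30013114-30019981, plus strand (mm10). It was at 252, 174, 160.0 and 184 CPM in the vehicle libraries and at 34.4, 24.6, 27.4 and 20.4 CPM in the CCl4 libraries. Each CCl4 library was below each vehicle library, and Il6 fell 7.21-fold (log2 fold change -2.85, SE 0.21, edgeR adjusted p = 1.65e-05). In bulk RNA of this kind, fewer cells of a type and less RNA per cell cannot be told apart. Summed Kupffer cell markers fell with it, as given above, and so did 10 of 14 endothelial markers, whose sum was 577.4 to 1045 CPM in vehicle and 258.7 to 432.3 CPM in CCl4. Their part in the result was not tested.

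The sequence upstream of Il6 is shown because this was the ligand with the largest change. RefSeq (GRCm38.p6) gives the 250 bases before its start site at chr5:30012864-30013113 on the plus strand, and capitals mark an AP-1 motif (TGANTCA) and a kappaB motif.
Il6 upstream: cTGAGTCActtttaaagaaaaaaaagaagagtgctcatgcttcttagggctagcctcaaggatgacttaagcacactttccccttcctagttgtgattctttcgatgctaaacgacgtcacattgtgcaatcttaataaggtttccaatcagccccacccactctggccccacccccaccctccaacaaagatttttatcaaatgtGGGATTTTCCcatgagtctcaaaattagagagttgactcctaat
The kappaB match begins 44 bases and the AP-1 match 249 bases before the start site. Over both strands, the kappaB motif was found in 0.411% and TGANTCA in 7.81% of the 32851 RefSeq windows of 300 bases. Of the 11 called genes with a window, Il6 alone held the kappaB motif, and Il6 and Il1rn held the AP-1 motif. These matches are letters in a window and no binding was measured.

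Il27 encodes the p28 subunit of IL-27, which pairs with EBI3 and restrains T cell responses. At chr7:126589010-126594941, minus strand, it was at 16.9, 18.7, 10.9 and 9.52 CPM in the vehicle libraries and at 10.1, 4.81, 7.51 and 4.28 CPM in the CCl4 libraries. Vehicle 4 lay below CCl4 1, so the groups overlapped, and the gene fell 2.10-fold (log2 fold change -1.07, SE 0.31, edgeR adjusted p = 0.0368). The call was lost without vehicle 1 or 2 or CCl4 2, 3 or 4, when the edgeR adjusted p was 0.0952, 0.0733, 0.0963, 0.0736 and 0.0789, and without vehicle 2 and CCl4 4 together it was 0.121. Its partner Ebi3 was at 59.4 ± 7.40 CPM in vehicle and 44.3 ± 5.77 CPM in CCl4 (edgeR adjusted p = 0.0791), and its receptor chain Il27ra at 7.98 ± 2.56 CPM in vehicle and 11.5 ± 0.958 CPM in CCl4 (edgeR adjusted p = 0.142).

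Il5, which encodes the growth and survival factor of eosinophils, was the only one of the 15 tested ligands that edgeR called higher, and DESeq2 called Il33 as well. At chr11:53720794-53725106, plus strand, it was at 0.641, 1.16, 0.475 and 0.160 CPM in the vehicle libraries and at 3.19, 5.56, 2.99 and 1.81 CPM in the CCl4 libraries. These levels rest on 4 to 141 counts per library. The lowest CCl4 library lay above the highest vehicle library (log2 fold change 2.48, SE 0.56, edgeR adjusted p = 0.0109), and the gene was called in each of the 18 alternatives in which it was tested. Of its neighbours in the type 2 cytokine locus, Il4 was at 0.530 ± 0.298 CPM in vehicle and 0.664 ± 0.141 CPM in CCl4 (edgeR adjusted p = 0.753) and Il13 had 0 counts in all 8 libraries. Innate lymphoid cells, T cells and mast cells are known sources of IL-5, and the sum of 20 T, NK and innate lymphoid cell markers was 169.7 to 214.5 CPM in vehicle and 124.3 to 171.9 CPM in CCl4. Of the 19 tested markers in that list edgeR called 1, Klrk1, which fell from 99.5 ± 7.97 to 37.4 ± 9.88 CPM. The lower sums in CCl4 rest largely on this 1 gene, and the median log2 fold change of the 19 was 0.037. Gata3, a transcription factor of type 2 lymphoid cells, was at 3.83 ± 1.94 CPM in vehicle and 8.75 ± 2.82 CPM in CCl4 (edgeR adjusted p = 0.0567). A list of 11 basophil and mast cell markers summed to 32.95 to 104.6 CPM in vehicle and 50.84 to 106.0 CPM in CCl4, with 0 of 5 tested called. Of the eosinophil markers Siglecf rose, from 3.13 ± 1.02 to 33.1 ± 19.3 CPM (edgeR adjusted p = 0.000730), while Ccr3 fell, with 304 ± 57.9 CPM in vehicle and 84.7 ± 31.9 CPM in CCl4 (edgeR adjusted p = 0.000578). The granule protein genes were near 0, with Prg2 at 0.161 ± 0.148 CPM in vehicle and 0.197 ± 0.0978 CPM in CCl4 and Epx at 0.00989 ± 0.0198 CPM in vehicle and 0.0812 ± 0.137 CPM in CCl4. The part of such cells in the Il5 result was not tested.

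The other abundant ligands did not pass the test. Il1a, which encodes the IL-1 alpha released by damaged and activated cells, was at 5525, 2311, 2521 and 2816 CPM in the vehicle libraries and at 3544, 2149, 3186 and 1748 CPM in the CCl4 libraries (edgeR adjusted p = 0.579). Vehicle 1 stood above the other vehicle libraries, and without it the log2 fold change was 0.071 in place of -0.31. Il1b, outside the selection, was not called either, at 2563 ± 940.1 CPM in vehicle and 2335 ± 500.4 CPM in CCl4 (edgeR adjusted p = 0.786). Il12b, the p40 subunit shared by IL-12 and IL-23, was at 425, 164, 78.1 and 85.8 CPM in the vehicle libraries and at 119.6, 107, 68.4 and 30.1 CPM in the CCl4 libraries (edgeR adjusted p = 0.168), with vehicle 1 again highest. Its IL-23 partner Il23a was at 48.4 ± 27.9 CPM in vehicle and 31.2 ± 12.2 CPM in CCl4 (edgeR adjusted p = 0.290). Its IL-12 partner Il12a was at 0.877 ± 0.281 CPM in vehicle and 0.889 ± 0.398 CPM in CCl4 (edgeR adjusted p = 0.984).

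Il10, the main anti-inflammatory cytokine of macrophages, was at 118, 84.0, 71.3 and 57.0 CPM in the vehicle libraries and at 55.7, 61.6, 55.0 and 41.5 CPM in the CCl4 libraries. CCl4 2 lay above vehicle 4, so the groups overlapped (log2 fold change -0.63, SE 0.22, edgeR adjusted p = 0.0756). Il15, a survival factor for NK and memory T cells, was at 49.7, 36.5, 33.4 and 27.0 CPM in the vehicle libraries and at 26.4, 28.8, 24.0 and 22.4 CPM in the CCl4 libraries (log2 fold change -0.53, SE 0.18, edgeR adjusted p = 0.0799). Both lay outside the threshold here and passed it in some of the 19 alternatives, Il10 in 6, with adjusted p-values from 0.0198 to 0.208 over all of them, and Il15 in 5, with adjusted p-values from 0.0253 to 0.522. Il16, a chemoattractant for CD4+ cells, was at 65.8 ± 19.5 CPM in vehicle and 42.6 ± 11.7 CPM in CCl4 (edgeR adjusted p = 0.125), and passed without vehicle 2, with a log2 fold change of -0.80 (edgeR adjusted p = 0.0245). Il33, an alarmin of stromal and epithelial cells, was low, at 1.72, 1.39, 1.503 and 1.60 CPM in the vehicle libraries and at 3.42, 2.68, 5.43 and 1.76 CPM in the CCl4 libraries. Its libraries lay apart by group but the gene was not called (log2 fold change 1.09, SE 0.37, edgeR adjusted p = 0.0716). It passed in some of the alternatives, DESeq2 among them. Mesothelial cells are known to express Il33, and their markers summed to 2.694 to 8.123 CPM in vehicle and 55.68 to 160.6 CPM in CCl4, and their part in the Il33 values was not tested. In 6 of the 8 ligands with a mean of 10 CPM or more in either group, vehicle 1 was the highest vehicle library.

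**Figure D2:**
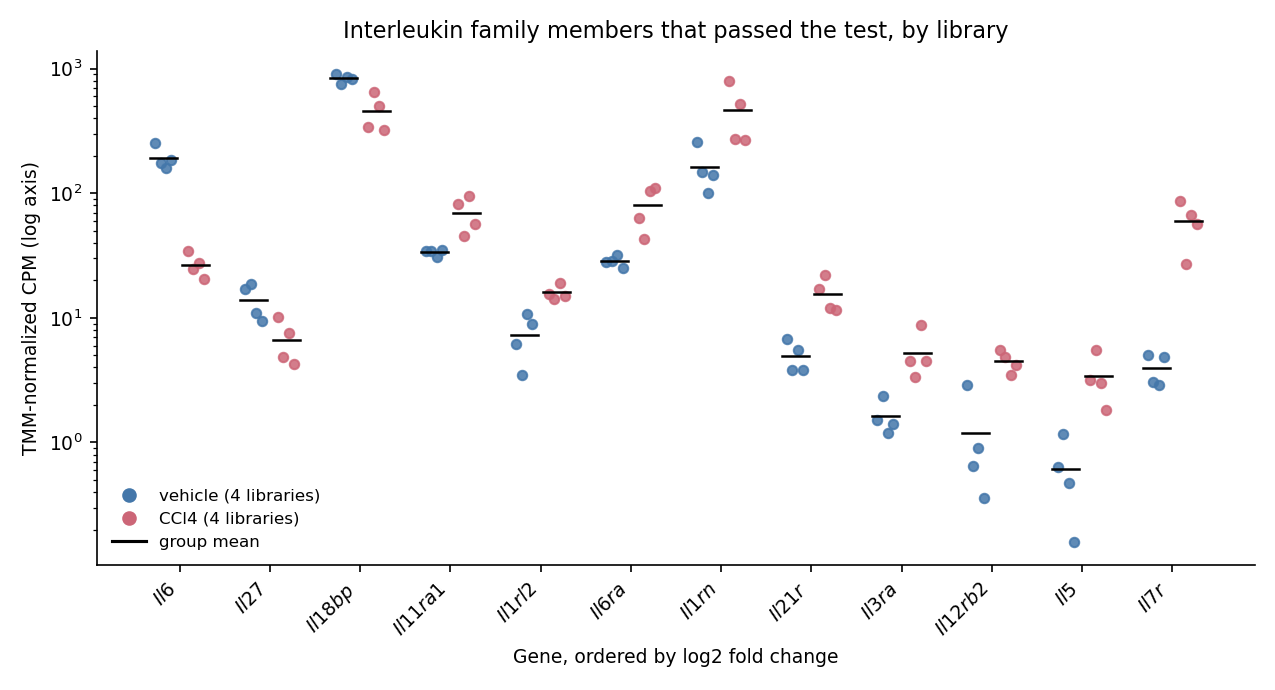
TMM-normalized CPM (vertical log axis) of the 12 genes that passed the test, 1 point per library, with 4 vehicle libraries in blue, 4 CCl4 libraries in red and a bar at each group mean. The groups are apart in 11 of the 12 genes, and in Il27 the lowest vehicle library, at 9.52 CPM, lies below the highest CCl4 library, at 10.1 CPM.

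Of the 3 tested inhibitors of IL-1 and IL-18, 1 rose and 1 fell. Il1rn encodes the IL-1 receptor antagonist, which occupies the receptor without signalling, and Il18bp encodes a secreted protein that captures IL-18. Il1rn (chr2:24336853-24351494, plus strand) was at 259, 148, 100.4 and 141 CPM in the vehicle libraries and at 791, 272, 521 and 268 CPM in the CCl4 libraries. The groups did not overlap, CCl4 1 was the highest of its group, and the gene rose 2.85-fold (log2 fold change 1.51, SE 0.38, edgeR adjusted p = 0.0188). The edgeR adjusted p was 0.0589 without vehicle 3, 0.0567 without vehicle 4 and 0.0599 without CCl4 1. Neutrophils are a known source of this antagonist, and 8 of 13 neutrophil markers rose, with the sums given above; their part in the result was not tested. Il18bp (chr7:102014885-102018690, minus strand) was at 904, 748, 862 and 822 CPM in the vehicle libraries and at 338, 653, 501 and 324 CPM in the CCl4 libraries. All CCl4 libraries lay below all vehicle libraries, and it fell 1.83-fold (log2 fold change -0.88, SE 0.22, edgeR adjusted p = 0.0209). Its adjusted p by edgeR was 0.0506, 0.0597 and 0.0521 without vehicle 1, 3 or 4 and 0.0647 without CCl4 1. Of 8 Kupffer cell markers 7 fell as well, and their part was not tested. The IL-1 decoy receptor Il1r2 was at 38.4, 32.5, 21.1 and 69.4 CPM in the vehicle libraries and at 82.5, 49.2, 48.7 and 29.5 CPM in the CCl4 libraries and its groups overlapped (edgeR adjusted p = 0.555).

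The inhibitors can also be set against their ligands. On the TPM scale, which corrects for transcript length, Il1rn stood at 2.39, 2.89, 1.93 and 2.43 per 100 TPM of Il1a and Il1b together in the vehicle libraries and at 10.1, 5.19, 7.18 and 6.37 in the CCl4 libraries. The means were 2.41 ± 0.393 and 7.22 ± 2.1. Every CCl4 library had a higher ratio than every vehicle library. Il18bp stood at 4.6 ± 0.902 TPM per 1 TPM of Il18 in vehicle and at 4.26 ± 0.803 in CCl4, with overlapping groups. Both ratios were chosen after the values were seen and were therefore not tested. Il18, outside the selection, was at 91.0 ± 16.8 CPM in vehicle and 53.4 ± 22.2 CPM in CCl4 (edgeR adjusted p = 0.0625).

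**Figure D3:**
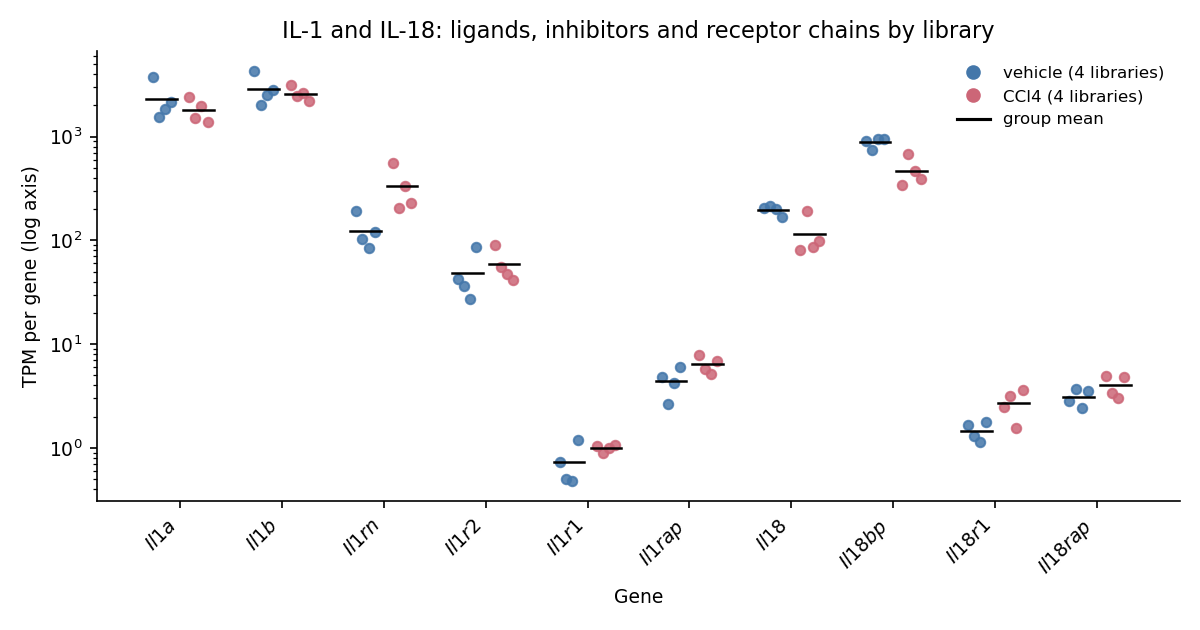
TPM (vertical log axis) of the IL-1 and IL-18 ligands, their inhibitors and their receptor chains, 1 point per library, with vehicle in blue, CCl4 in red and a bar at each mean of 4. Il1rn moved from 124 to 330.4 TPM and Il18bp from 894 to 469 TPM, while Il1a and Il1b overlap between groups.

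Il1rn has start sites for 2 kinds of protein: an upstream first exon is known to give intracellular antagonist and a downstream one the secreted form. RefSeq (GRCm38.p6) windows before both are shown, because the estimated counts separate transcripts that begin at each. The upstream window is chr2:24336610-24336852 and the downstream window chr2:24345041-24345287, both on the plus strand and without the bases that lie in annotated exons. Capitals mark an AP-1 motif (TGANTCA) in the first and a STAT6-type motif in the second.
Il1rn upstream start: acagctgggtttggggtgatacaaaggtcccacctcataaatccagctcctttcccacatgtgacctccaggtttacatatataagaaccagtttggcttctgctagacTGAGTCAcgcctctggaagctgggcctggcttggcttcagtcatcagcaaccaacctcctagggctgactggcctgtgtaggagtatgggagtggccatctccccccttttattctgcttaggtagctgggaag
Il1rn downstream start: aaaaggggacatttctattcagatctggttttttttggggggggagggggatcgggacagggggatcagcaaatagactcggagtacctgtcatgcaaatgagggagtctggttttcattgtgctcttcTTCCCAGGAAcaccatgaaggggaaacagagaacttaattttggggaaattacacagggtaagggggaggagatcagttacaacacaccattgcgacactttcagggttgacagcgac
The AP-1 match begins 141 bases before the upstream start and the STAT6-type match 121 bases before the downstream start, and the starts lie 8431 bases apart. The STAT6-type motif was found in 6.95% of all windows on either strand. Of the gene's estimated counts, the transcript from the upstream exon, Il1rn-204, held 11.7, 9.79, 9.56 and 12.4% in the vehicle libraries and 20.2, 12.5, 21.03 and 18.4% in the CCl4 libraries. Its share was higher in every CCl4 library than in any vehicle library. The transcript from the downstream exon, Il1rn-201, held 85.2% ± 1.87 in vehicle and 79.3% ± 3.38 in CCl4, and its groups overlapped. The 3′ end of Il1rn-204 is 558 bases longer than that of Il1rn-201, so reads that tell the 2 apart can also lie at that end.

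Receptor chains of the common gamma family held the largest change. Il7r encodes the IL-7 receptor alpha chain, which lymphoid cells need for survival and which also serves in the receptor for TSLP. At chr15:9505788-9530176, minus strand, it was at 5.01, 3.07, 2.89 and 4.88 CPM in the vehicle libraries and at 87.3, 27.0, 67.0 and 56.6 CPM in the CCl4 libraries. The lowest CCl4 library stood well above the highest vehicle library, and Il7r rose 14.97-fold (log2 fold change 3.90, SE 0.35, edgeR adjusted p = 4.58e-05). Leaving out any 1 library gave log2 fold changes between 3.68 and 4.15. Of the 19 tested T, NK and innate lymphoid cell markers, whose sum is given with Il5 above, edgeR called Klrk1 alone (log2 fold change -1.41), and the median was 0.037. The others with a log2 fold change over 1 were Gata3, Cd247 and Tbx21, at 1.19, 1.10 and 1.01, none of them called. Of 8 monocyte markers 4 rose. The part of either cell type in the Il7r result was not tested. The ligand Il7 was at 0.979 ± 0.443 CPM in vehicle and 1.31 ± 0.245 CPM in CCl4 (edgeR adjusted p = 0.607). Of the TSLP system, the receptor chain Crlf2 was at 6.599 ± 0.555 CPM in vehicle and 9.97 ± 2.13 CPM in CCl4 (edgeR adjusted p = 0.0615) and the ligand Tslp fell from 5.64 ± 1.02 to 1.21 ± 0.526 CPM (edgeR adjusted p = 0.00158).

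Il21r, the IL-21 receptor (chr7:125603429-125633570, plus strand), was at 6.73, 3.81, 5.54 and 3.84 CPM in the vehicle libraries and at 17.0, 22.3, 11.9 and 11.6 CPM in the CCl4 libraries. Again no CCl4 library reached down to the vehicle range, and the gene rose 3.15-fold (log2 fold change 1.65, SE 0.27, edgeR adjusted p = 0.00165). Il2rg, the common gamma chain with which both IL7R and IL21R pair, was far more abundant and was at 417, 384, 339 and 361 CPM in the vehicle libraries and at 389, 306, 319.5 and 246 CPM in the CCl4 libraries. Its groups overlapped and it was not called (edgeR adjusted p = 0.359). Il2rb, shared by the IL-2 and IL-15 receptors, was at 11.7, 5.85, 4.79 and 12.2 CPM in the vehicle libraries and at 16.2, 18.2, 14.1 and 12.7 CPM in the CCl4 libraries, apart by group but not called (edgeR adjusted p = 0.0836). Il15ra, which presents IL-15 to neighbouring cells, was at 28.6, 22.4, 19.7 and 17.5 CPM in the vehicle libraries and at 17.1, 17.2, 17.4 and 12.9 CPM in the CCl4 libraries, and there the CCl4 libraries were the lower ones without a call (edgeR adjusted p = 0.126). B cell markers, whose cells also carry IL21R, summed to 187.3 to 383.6 CPM in vehicle and 319.8 to 635.1 CPM in CCl4, with 1 of 12 higher and 1 lower, and their part in the Il21r result was not tested.

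Of the 4 tested receptor chains of the IL-6 family, Il6ra and Il11ra1 rose. Il6ra (chr3:89864059-89913196, minus strand), which binds IL-6, was at 28.1, 28.4, 32.2 and 24.9 CPM in the vehicle libraries and at 63.3, 43.1, 104 and 111 CPM in the CCl4 libraries. The vehicle libraries lay close together and CCl4 2 was the lowest of its group, still above them, and the gene rose 2.82-fold (log2 fold change 1.496, SE 0.26, edgeR adjusted p = 0.00268). Il11ra1 (chr4:41699989-41769474, plus strand), which binds IL-11, was at 34.4, 34.1, 30.6 and 35.0 CPM in the vehicle libraries and at 81.6, 45.7, 95.2 and 57.1 CPM in the CCl4 libraries. Here too the groups did not overlap (log2 fold change 1.06, SE 0.21, edgeR adjusted p = 0.00543). Its annotated span, introns included, runs across Galt on the same strand and Dctn3 on the other, and overlap of exons was not examined. The gene also has a near-identical copy, Il11ra2, so its counts are uncertain. By limma on log2(FPKM + 0.1) its adjusted p was 0.143. Il6st, the signalling chain of both receptors, was at 88.1, 36.3, 85.9 and 99.2 CPM in the vehicle libraries and at 75.9, 51.3, 90.7 and 67.6 CPM in the CCl4 libraries and was not called (edgeR adjusted p = 0.832). Vehicle 2 was its lowest library. The sign of its small log2 fold change of -0.12 turned to 0.026 without vehicle 4 and to 0.014 without CCl4 2. Il31ra, the receptor chain for IL-31, was at 0.940 ± 0.0717 CPM in vehicle and 0.802 ± 0.586 CPM in CCl4 (edgeR adjusted p = 0.823). Osm, another ligand of IL6ST, rose from 46.2 ± 24.1 to 127 ± 24.1 CPM (edgeR adjusted p = 0.00609).

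The alpha chain of the IL-3 receptor rose, and so did the beta chains with which it pairs. Il3ra (chr14:14346275-14356011, plus strand) was low, at 1.52, 2.37, 1.19 and 1.40 CPM in the vehicle libraries and at 4.53, 3.35, 8.69 and 4.47 CPM in the CCl4 libraries. Its groups were apart (log2 fold change 1.70, SE 0.36, edgeR adjusted p = 0.00825), but by limma on log2(FPKM + 0.1) the adjusted p was 0.214. The deposited FPKM of Il3ra in CCl4 4, 0.120, lay within the vehicle range of 0.101 to 0.203. Its TPM in CCl4 4 was 7.65, against 1.22 to 2.39 in vehicle, so the 2 measures differ for this gene. The common beta chain Csf2rb, which serves IL-3, IL-5 and GM-CSF, rose from 215 ± 23.1 to 433 ± 125 CPM (edgeR adjusted p = 0.00587), and the mouse IL-3 specific beta chain Csf2rb2 from 23.2 ± 5.04 to 47.8 ± 9.05 CPM (edgeR adjusted p = 0.00319). Both are near-identical in sequence, so reads may be divided wrongly between them. Basophils carry much IL3RA, and 11 of their markers and those of mast cells summed to 32.95 to 104.6 CPM in vehicle and 50.84 to 106.0 CPM in CCl4. Most of this was Hdc, at 42.7 ± 30.3 CPM in vehicle and 60.6 ± 20.75 CPM in CCl4. Mcpt8, Fcer1a, Ms4a2, Prss34, Mcpt4 and Tpsb2 were below 1 CPM in mean, with Mcpt8 at a mean of 0.357 CPM in vehicle and 0.548 CPM in CCl4. Tpsb2 was at 0 CPM in every vehicle library and at 0.786, 0.670, 0.543 and 0.333 CPM in the CCl4 libraries. Fcer1a went the other way, with means of 0.409 CPM in vehicle and 0.0394 CPM in CCl4. Of the 5 markers in this list that were tested, edgeR called 0. The part of these cells in the result was not tested. Il5ra, the receptor chain for the Il5 described above, was at 1.24, 2.37, 0.791 and 1.80 CPM in the vehicle libraries and at 1.30, 0.631, 0.905 and 2.19 CPM in the CCl4 libraries, with overlapping groups (edgeR adjusted p = 0.750). The ligand Il3 had 0 counts in all libraries.

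Il1rl2 encodes the receptor for the IL-36 cytokines. At chr1:40324610-40367562, plus strand, it was at 6.13, 3.48, 10.7 and 8.88 CPM in the vehicle libraries and at 15.7, 14.2, 19.2 and 15.1 CPM in the CCl4 libraries. The groups did not overlap, and the gene rose 2.19-fold (log2 fold change 1.13, SE 0.29, edgeR adjusted p = 0.0212). Its edgeR adjusted p was 0.0573 without vehicle 1, 0.0505 without CCl4 1 and 0.0589 without CCl4 3, and by limma on log2(FPKM + 0.1) it was 0.158. Dendritic cells are known to carry this receptor, and 10 of their markers summed to 80.57 to 167.5 CPM in vehicle and 131.3 to 322.1 CPM in CCl4, with 1 of 9 tested higher and 1 lower. Their part in the result was not tested. Il1rap, the chain that IL-1, IL-33 and IL-36 receptors share, was at 14.3, 7.25, 11.98 and 17.0 CPM in the vehicle libraries and at 24.1, 17.9, 17.9 and 19.8 CPM in the CCl4 libraries, apart by group without a call (edgeR adjusted p = 0.0865). Among the other TIR receptors, the IL-33 receptor Il1rl1 was at 2.51 ± 0.906 CPM in vehicle and 4.73 ± 1.31 CPM in CCl4 (edgeR adjusted p = 0.0836), the IL-1 receptor Il1r1 at 2.57 ± 0.757 CPM in vehicle and 3.67 ± 0.716 CPM in CCl4 (edgeR adjusted p = 0.300). Of the IL-18 receptor chains, Il18r1 was at 3.50 ± 0.414 CPM in vehicle and 5.37 ± 1.06 CPM in CCl4 (edgeR adjusted p = 0.109) and Il18rap at 7.15 ± 1.87 CPM in vehicle and 9.61 ± 2.42 CPM in CCl4 (edgeR adjusted p = 0.281). The IL-36 gamma ligand, listed as Il1f9, was at 3.88, 6.22, 4.19 and 11.0 CPM in the vehicle libraries and at 10.0, 8.04, 7.70 and 3.00 CPM in the CCl4 libraries and overlapped between groups (edgeR adjusted p = 0.816).

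Il12rb2, the signalling chain of the IL-12 receptor (chr6:67291318-67376188, minus strand), was at 2.88, 0.650, 0.910 and 0.360 CPM in the vehicle libraries and at 5.504, 4.89, 3.49 and 4.19 CPM in the CCl4 libraries. Vehicle 1 was the highest of its group and lay below all CCl4 libraries (log2 fold change 1.90, SE 0.54, edgeR adjusted p = 0.0351). The call was lost in 7 of 19 alternatives, the most among the 12 genes. The edgeR adjusted p lay between 0.0542 and 0.102 without vehicle 2, 3 or 4 or CCl4 1, 2 or 3, and without vehicle 1 the log2 fold change was 2.83 in place of 1.90 (edgeR adjusted p = 0.0019). The annotated span of the gene, introns included, overlaps that of Serbp1, at a mean of 77.46 CPM, on the opposite strand over 6419 bases. Overlap of exons was not examined. No step that marks the strand is named, so reads from any exon sequence in common could not be told apart. Il12rb1, the chain shared with the IL-23 receptor, was at 2.42 ± 0.211 CPM in vehicle and 2.11 ± 0.694 CPM in CCl4 (edgeR adjusted p = 0.747), and Il23r at 0.361 ± 0.219 CPM in vehicle and 0.681 ± 0.292 CPM in CCl4 (edgeR adjusted p = 0.346).

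The remaining receptor chains above 10 CPM did not pass the test. Il10rb, the shared chain of the IL-10 receptor, was at 308, 280.2, 331 and 294 CPM in the vehicle libraries and at 315, 346, 404 and 327 CPM in the CCl4 libraries (edgeR adjusted p = 0.401). The specific chain Il10ra was at 280.0, 101, 321 and 317 CPM in the vehicle libraries and at 289, 325, 344 and 277 CPM in the CCl4 libraries (edgeR adjusted p = 0.607). Il10ra was low in vehicle 2 alone, and the other 7 libraries lay between 277 and 344 CPM. Il4ra, which binds IL-4 and IL-13, was at 152, 43.5, 110.1 and 122 CPM in the vehicle libraries and at 179, 176, 205 and 122 CPM in the CCl4 libraries (edgeR adjusted p = 0.184). Its partner Il13ra1 was at 147, 77.0, 157 and 149.97 CPM in the vehicle libraries and at 124, 118, 131 and 113 CPM in the CCl4 libraries (edgeR adjusted p = 0.748). Vehicle 2 was the lowest library for both. Il17ra, the common chain of the IL-17 receptors, was at 174, 80.4, 133 and 156 CPM in the vehicle libraries and at 224, 190.1, 242 and 184 CPM in the CCl4 libraries, apart by group without a call (edgeR adjusted p = 0.0779). Without vehicle 2 and CCl4 4 together, Il4ra and Il17ra passed the edgeR test, with log2 fold changes of 0.54 and 0.50 and adjusted p-values of 0.0275 and 0.0366. Vehicle 2 was the lowest vehicle library in 9 of the 16 receptor chains with a mean of 10 CPM or more in either group.

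Several of these receptors use the same chains. Of 10 such chains (Il2rg, Il2rb, Il6st, Il1rap, Il10rb, Il12rb1, Il17ra, Il4ra, Il13ra1 and Il20rb) edgeR called 0, with a median log2 fold change of 0.041, 3 had an unadjusted p under 0.05, and DESeq2 called the 3 chains Il17ra, Il1rap and Il2rb higher. Among the other 24 tested receptor chains 7 rose, with a median of 0.72. Over all genes tested edgeR called 8.93% higher and 6.26% lower, so 0 calls among 10 chains lies near that share. At an unadjusted p under 0.05 by edgeR, 15.4% of all genes tested were higher, the side on which the 3 shared chains lay. Csf2rb, a shared chain that rose (edgeR adjusted p = 0.00587), has no Il symbol and is not among the 10. Il7r, the chain with the largest rise, also serves in the TSLP receptor and was counted among the 24. The counts depend on these placements. The division was made after the values were seen and the difference was not tested.

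On the TPM scale the levels of the genes can be set in order. Il1a was the highest in both groups, at 2318 ± 974 TPM in vehicle and 1817 ± 464 TPM in CCl4, followed by Il18bp at 894 ± 99.2 TPM in vehicle and 469 ± 153 TPM in CCl4. In vehicle the next were Il2rg at 371 ± 24.9, Il6 at 265 ± 55.8 and Il10rb at 239 ± 29.2 TPM, the latter 2 within their spread of each other. In CCl4 the third place went to Il1rn at 330.4 ± 161 TPM, whose spread covers Il2rg at 307 ± 50.6 and Il10rb at 267 ± 22.4 TPM. Il6 moved from rank 4 to rank 15 and Il1rn from rank 7 to rank 3. Il7r was at 1.55 ± 0.482 TPM in vehicle and 24.7 ± 10.2 TPM in CCl4.

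Transcript shares within a gene could be compared for 33 transcripts of 14 genes. In 7 transcripts of 5 genes the shares of the groups did not overlap, which is 21.2% of the 33, beside 8.14% of 13213 transcripts of all genes chosen in the same way. Each had an exact permutation p of 0.0286 (two-sided), the smallest that 4 against 4 samples allow. None passed the adjustment over 33 transcripts (lowest adjusted p = 0.135). At this smallest p the adjustment can be passed only if many of the 33 reach it, so the outcome decides little. Besides Il1rn-204, the 7 were transcripts of Il6ra, Il6, Il15ra and Il18bp, and shares of 1 gene are not independent of each other. Il6ra-201 held 69.2, 59.9, 67.3 and 66.9% in the vehicle libraries and 80.7, 74.8, 80.7 and 79.2% in the CCl4 libraries, and the remainder fell to Il6ra-202, whose 3′ end is 5265 bases longer. The shorter form had the larger share in every library of both groups, and that share was higher in every CCl4 library than in any vehicle library. Il6-201 held 53.01, 49.7, 45.1 and 41.8% in the vehicle libraries and 38.5, 25.4, 40.4 and 40.3% in the CCl4 libraries, and Il6-204, which starts 207 bases downstream, held 32.6, 28.8, 32.6 and 35.6% in the vehicle libraries and 38.1, 52.5, 38.9 and 37.3% in the CCl4 libraries. The intron-retaining Il15ra-216 held 5.79% ± 5.17 in vehicle and 18.6% ± 3.40 in CCl4, and Il18bp-201 59.2% ± 0.608 in vehicle and 57.6% ± 0.814 in CCl4. The shares of Il4ra transcripts overlapped between groups, and most of its counts, 75.3% ± 5.06 in vehicle and 73.7% ± 1.99 in CCl4, were assigned to Il4ra-205, a transcript annotated for nonsense-mediated decay.

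**Figure D4:**
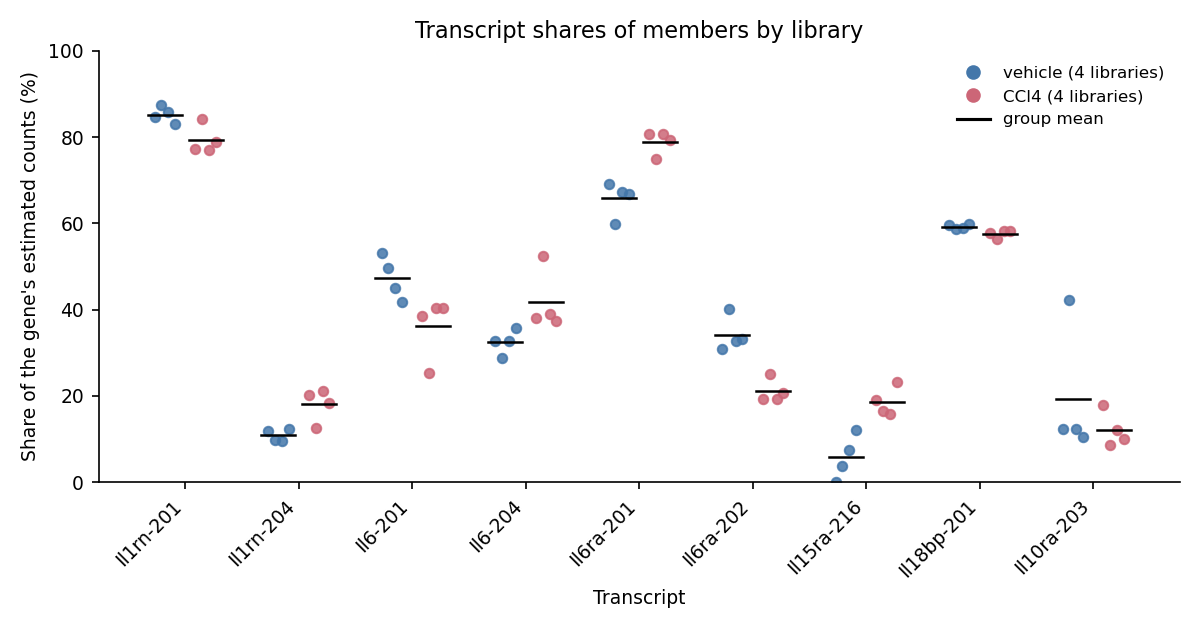
Share of a gene's estimated counts held by each named transcript (vertical axis, percent), 1 point per library, with vehicle in blue, CCl4 in red and a bar at each mean of 4. The groups are apart for Il1rn-204, Il6-201, Il6-204, Il6ra-201, Il6ra-202, Il15ra-216 and Il18bp-201, and 1 vehicle library at 42.3% stands away from the others in Il10ra-203.

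Other genes of these pathways were read from lists. Of 23 JAK, STAT and SOCS genes tested, 2 rose. Stat5a, which acts downstream of IL-3, IL-5 and IL-7, rose from 9.01 ± 2.10 to 22.6 ± 10.4 CPM (edgeR adjusted p = 0.00867), and Socs6 rose from 26.8 ± 5.27 to 48.9 ± 4.95 CPM (edgeR adjusted p = 0.00360). Socs3, a feedback inhibitor induced by IL-6, was at 126 ± 63.4 CPM in vehicle and 175 ± 44.5 CPM in CCl4 (edgeR adjusted p = 0.401). Of 16 TIR adaptors and kinases edgeR called 3: the kinase Irak2 rose from 88.0 ± 27.7 to 236 ± 32.6 CPM (edgeR adjusted p = 0.00134), the inhibitory Irak3 from 17.8 ± 5.62 to 41.9 ± 11.6 CPM (edgeR adjusted p = 0.00697) and the ubiquitin ligase Peli2 from 3.23 ± 1.12 to 6.69 ± 1.29 CPM (edgeR adjusted p = 0.0292). Of 17 genes listed for macrophages exposed to IL-4 and IL-13, 4 rose and 4 fell. The changes ran both ways at large size: Arg1, which breaks down arginine, rose from 30.1 ± 13.1 to 419.6 ± 214 CPM (edgeR adjusted p = 0.000177) and Chil3 from 1.54 ± 0.913 to 46.8 ± 31.9 CPM (edgeR adjusted p = 0.000250), whereas the scavenger receptor Cd163 fell from 995 ± 378 to 104 ± 34.3 CPM (edgeR adjusted p = 0.000132) and the chemokine Ccl24 from 557 ± 49.2 to 101 ± 19.6 CPM (edgeR adjusted p = 1.28e-05). Chil3 is also in the list of monocyte markers, of which 4 of 8 rose, and Cd163 in that of Kupffer cell markers, of which 7 of 8 fell, and the part of those cells in these values was not tested. Of 14 STAT3 targets of IL-10 and IL-6, Nfil3 and Tnfrsf1b rose and Cebpd and Hmox1 fell. The medians of these 4 lists were 0.13, 0.25, 0.47 and 0.20, beside -0.029 over all genes tested.

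The tested genes not yet named were low. The IL-17 receptor chains Il17rb, Il17rc, Il17rd and Il17re had log2 fold changes of 0.78, -0.56, -0.40 and 0.79, and none was called. Il2ra, Il9r, Il20rb, Il1rapl2 and the ligand Il17f had log2 fold changes between -0.42 and 1.12, also without a call. Il4i1, which oxidizes aromatic amino acids, was at 8.005 ± 1.45 CPM in vehicle and 6.22 ± 3.31 CPM in CCl4 (edgeR adjusted p = 0.511).

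The 26 genes that were not tested had at most 19 counts in any library and at most 0.809 CPM. They comprised 19 ligands, 4 receptor chains and 3 inhibitors. Il3, Il13, Il17d and Il31 had 0 counts in every library, and at these depths a count of 0 says only that the transcript was not detected. Of the ligand genes excluded from the selection, Il34, a ligand of the CSF1 receptor, fell from 0.901 ± 0.291 to 0.134 ± 0.0401 CPM (edgeR adjusted p = 0.00673).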

How the data were processed

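Per the labels' protocols, libraries were made with SMART-Seq HT and NEBNext Ultra II, with no step named that marks the strand. The authors deposited estimated counts and TPM per transcript from kallisto for each of the 8 samples, and a table of FPKM per gene, about whose making the sources used here say nothing. The FPKM of some genes stand apart from their TPM. In vehicle Il17ra was at a mean of 0.204 FPKM and 56.9 TPM, where Il1a was at 272 FPKM and 2318 TPM. The deposited effective lengths of transcripts were used for the length-scaled TPM counts alone. The submitters' processing notes name kallisto, edgeR, limma and the build mm10.

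Transcripts were assigned to GENCODE M21 genes by identifier without version, and 116405 of 117494 matched. Estimated counts were summed per gene and rounded to whole numbers. Genes were kept by filterByExpr (minimum count 10, minimum total 15), and CCl4 was compared with vehicle by edgeR 4.0.16 (R 4.3.3), quasi-likelihood test, TMM, group as the sole term, two-sided, Benjamini-Hochberg threshold 0.05. SE is the size of the log2 fold change divided by the square root of F. In simulated counts for 14849 genes with 200 changed, the test recovered 52% at a log2 change of 1 and 90% at 2, with 5% false calls. Transcript shares were compared by an exact permutation test for transcripts with at least 10% of a gene in a group mean and at least 100 counts of the gene in every library. Libraries of 1 group differed from each other beyond sampling noise (lowest mean chi-square per gene 30.02). Alternatives were RLE, upper-quartile and size-only scaling, no filter and a minimum count of 50, DESeq2 1.42.0, length-scaled TPM counts, limma 3.58.1 on log2(FPKM + 0.1) and log2(FPKM + 1), libraries left out, and a replicate block.

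Genes named are those past the threshold, those with a mean of 10 CPM or more in either group, their partners, and of each pathway list the called genes with the largest changes. The genes and lists were chosen with earlier results of these data known. Promoter windows are from RefSeq, GRCm38.p6, which held 11 of the 12 called genes. Of the pathway lists, 1 result on a called gene is not reported here.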

Additional observations from a re-analysis of the deposited data

Results flagged for a closer look

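In groups of 4 libraries, a library is named here when its gap to the nearest other as a share of the group's range exceeds Dixon's 95% critical value. Of 60 groups of gene levels looked at, 3 met this, and of 66 groups of transcript shares 10 did, where chance alone gives about 1 in 20 groups, and shares of 1 gene are not independent of each other.

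Il1a in vehicle 1 was at 5525 CPM with the next library at 2816 CPM. Il13ra1 in vehicle 2 was at 77.0 CPM with the next at 147 CPM. Il15ra in CCl4 4 was at 12.9 CPM with the next at 17.1 CPM.

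Vehicle 2 stood apart in the transcript shares of 2 receptor genes. Il10ra-201 held 57.7% of Il10ra there against 87.0% in the nearest vehicle library, and the decay-annotated Il10ra-203 held 42.3% against 12.3%. Il6st-201 held 42.9% of Il6st against 64.6%, and the longer Il6st-203 held 54.2% against 33.8%. Vehicle 2 also had a chemosensory sum of 2758 CPM and a mitochondrial share of 5.31%, the highest of the 8 libraries in both, though the mitochondrial share of every vehicle library lay above that of every CCl4 library, and the part of these in the shares was not tested.

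In CCl4 2, Il6-201 held 25.4% of Il6 against 38.5% in the nearest CCl4 library and Il6-204 held 52.5% against 38.9%. In CCl4 4, Il18rap-201 held 37.0% against 64.5% and the intron-retaining Il18rap-202 held 61.5% against 32.3%. Il15ra-201 held 35.7% in CCl4 1 against 11.6%, and Il15ra-210 held 21.9% in vehicle 1 against 28.4%.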

How the results depend on the processing

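The 12 calls gave 227 results over the alternatives: 196 kept direction and call, 31 kept the direction but lost the call, and 0 reversed. Il6, Il7r and Il6ra were called in all 19 alternatives and Il5 in the 18 in which it was tested (a minimum count of 50 removed it). Of 18 other genes with a mean of 10 CPM or more in either group, 10 passed the test in at least 1 alternative, 26 times in all. These were Il10 in 6, Il15 and Il17ra in 5 each, Il15ra, Il16 and Il2rb in 2 each, and Il12b, Il1rap, Il27ra and Il4ra in 1 each. Genes below that level were not counted. Of these, Il33 passed by DESeq2, with length-scaled TPM counts and by limma on both FPKM scales. It also passed without CCl4 4 and without vehicle 2 and CCl4 4 together. Il1rl1 passed by DESeq2, without vehicle 2, and without vehicle 2 and CCl4 4 together. Il1a reversed without vehicle 1 (0.071) and Il6st without vehicle 4 (0.0257) or CCl4 2 (0.014), none of them called; their log2 fold changes without 1 library ran from -0.469 to 0.071 and from -0.352 to 0.0257. Counts of interleukin genes called higher and lower were 14 and 4 by DESeq2, 11 and 3 with no filter, 9 and 5 with a minimum count of 50, 10 and 4 with length-scaled TPM counts, 7 and 3 by limma on log2(FPKM + 0.1) and 5 and 3 on log2(FPKM + 1). In the same order, 53, 75, 37, 53, 42 and 42 of them were tested. The shares of all genes tested that were called were 19.9, 7.92, 21.9, 12.4, 10.7 and 10.4%. Leaving out 1 library gave 8 to 12 calls, beside 10.0 to 17.3% of all genes tested. Over all genes the 2311 calls became 1289 and 1256 by limma on log2(FPKM + 0.1) and log2(FPKM + 1), with 12020 genes tested, and 1582 to 2666 without 1 library. Transcripts with shares apart numbered 8 by TPM shares and 8 to 10 without 1 library.

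Same-numbered libraries did not deviate together (correlations 0.0152, -0.241, 0.0387 and -0.169), so the numbers are not taken to pair samples. With a replicate block the calls were 14 (9 higher and 5 lower, with Il10 and Il12b added) and 2110 over all genes. Depth limits the genes of low level: Il5, Il12rb2 and Il3ra rest on as few as 4, 9 and 30 counts in a library.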
